A study of Rattus norvegicus with 4 samples.

Results

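The genes described here encode the protein subunits of the mitochondrial respiratory chain and ATP synthase. They were chosen by gene symbol alone: the Nduf, Sdh, Uqcr, Cyc1, Cycs, Cox4 to Cox8 and Atp5 symbols for nuclear genes, and the 13 protein-coding genes of mitochondrial DNA. The rule found 97 of the 24005 genes in the count table, 84 nuclear and 13 from mitochondrial DNA, and no measured value entered it. Of these, 93 had enough counts to be tested, 80 nuclear and all 13 of mitochondrial DNA. All 84 nuclear members were matched to RefSeq, 67 by symbol and 17 by an older symbol. The rule takes in 3 genes that are not stable subunits of the complexes (Cox7a2l, Atp5s and Atp5sl), counted by name with complexes IV and V. It leaves out Cox6b1, whose row is named LOC688869, and the ATP synthase inhibitor Atpif1. Also left out are Ndufab1 of complex I, counted below with relatives of the chain, and Usmg5 (RefSeq Atp5mk) of ATP synthase. These are given below as outside genes.

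RNA was measured by polyA RNA sequencing of cartilage from male Sprague Dawley rats of 140 to 230 g and 8 to 12 weeks. There were 2 control libraries, labelled healthy, and 2 osteoarthritis libraries. The series names monosodium iodoacetate, a glycolysis inhibitor injected into joints to induce osteoarthritis, as the inducer, and both osteoarthritis libraries are also labelled as treated with Xiaogu San (XGS), a preparation of traditional Chinese medicine. No library had osteoarthritis without XGS, so disease and treatment cannot be told apart, and "osteoarthritis" below means both. The series text speaks of mice for the normal animals, while the labels of all 4 libraries give rat. The labels do not say whether the libraries of a group came from separate animals, so p-values measure only the spread between these libraries, which may be technical.

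The chain passes electrons from NADH through complex I, or from succinate through complex II, to ubiquinone, then through complex III and cytochrome c to oxygen at complex IV. Complexes I, III and IV pump protons across the inner mitochondrial membrane, and complex V, the ATP synthase, uses the proton gradient to make ATP. Most subunits are encoded in the nucleus and imported, while a few hydrophobic core subunits of complexes I, III, IV and V are encoded by mitochondrial DNA. Cartilage has no blood vessels, and its chondrocytes are known to rely mainly on glycolysis.

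Libraries held 24492412 to 28270779 counts, as deposited by the authors. Levels below are CPM, counts scaled to library size with a correction for library composition (TMM, trimmed mean of M-values), unless FPKM, which also divides by gene length, is named. The 10 cartilage markers found of 12 listed summed to 27120 and 36360 CPM in the controls and to 4159 and 10530 CPM in osteoarthritis, with Col2a1 at 13919 and 26813 against 3431 and 385 CPM. Of the 10, 5 lay below both controls (Col2a1, Hapln1, Col9a1, Prg4 and Chad) and 5 overlapped. Acan, Comp, Col11a1 and Sox9 were highest in osteoarthritis 2, with Acan at 493 and 587 against 70.9 and 2703 CPM. Blood and marrow markers stood higher in the controls: erythroid markers summed to 97330 and 105500 CPM against 1347 and 4777 CPM, neutrophil markers to 6730 and 10490 against 97.3 and 538 CPM, and B cell markers to 273 and 369 against 11.5 and 22.1 CPM. Osteoblast and osteocyte markers summed to 903 and 4204 against 47.9 and 76.9 CPM, with control 2 above control 1, and endothelium markers to 552 and 231 against 1074 and 543 CPM, with 3 of 6 above both controls. Markers of cell division summed to 477 and 671 CPM against 69.6 and 191 CPM. Tendon markers were highest in osteoarthritis 2, at 7522 CPM against 352 to 2471 CPM in the other libraries, and adipocyte markers in osteoarthritis 1, at 8193 CPM against 32.0 to 1623 CPM. The part of these differences in the results below was not tested. In bulk tissue, fewer cells of a type and less RNA per cell cannot be told apart.

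Respiratory chain promoters are known for sites of NRF1, a transcription factor of nuclear genes for mitochondrial proteins. In RefSeq promoters of the GRCr8 build (250 bases before to 50 bases after the gene's start), the motif GCGC, any base, then TGCGC, searched on both strands, was present in 14 of the 73 nuclear members with a promoter in the table (19.2%) and in 4.71% of all 27457 promoters. The ETS motif CCGGAAG was present in 19 members (26.0%) against 9.22% of all, and the YY1 motif AAGATGGC in 15 (20.5%) against 3.44%. In all, 39 of 73 held at least 1 of the 3. The 5 windows around an NRF1 match are shown because their genes, from complexes I, II, III and V, ranged from a log2 fold change near 0 (Ndufv3, Sdha) to -1.88 (Atp5g2). Capitals mark the match, and each window lies upstream of the gene's start.
Ndufa11, chr9:1637505-1637538, plus strand: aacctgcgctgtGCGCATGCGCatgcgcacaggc
Ndufv3, chr20:9613735-9613768, plus strand: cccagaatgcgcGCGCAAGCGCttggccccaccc
Sdha, chr1:30764452-30764485, plus strand: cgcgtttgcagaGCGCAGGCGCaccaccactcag
Uqcrc1, chr8:118468147-118468180, plus strand: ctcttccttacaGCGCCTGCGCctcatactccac
Atp5g2 (RefSeq Atp5mc2), chr7:135678253-135678286, minus strand: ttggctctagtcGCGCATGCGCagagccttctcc
A match is a description of the sequence and does not show that the factor binds there.

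Nuclear subunit genes were lower in osteoarthritis than in control cartilage. The median log2 fold change of the 80 tested nuclear members was -0.90, or 1.87-fold lower, while the median over all 15282 genes tested was 0.15. Of the 80, 74 had a negative log2 fold change, against 44.9% of all genes. Both osteoarthritis libraries lay below both controls for 66 of the 80 (82.5%), against a background of 26.5% of all genes, and no nuclear member lay above, against 30% of all genes. The groups overlapped for the other 14. No member passed an adjusted p of 0.05 by edgeR's quasi-likelihood test, and neither did any other gene of the table (0%). The smallest adjusted p was 0.097 among the members and 0.0824 among all genes. At an unadjusted p under 0.05, 29 nuclear members were lower and none higher, against 11.2% and 12.2% of all genes. DESeq2 called 12 nuclear members lower and none higher, against 8.26% and 7.24% of all genes: Ndufa6, Ndufb7, Ndufb11, Cox5a, Cox5b, Cox6a1, Cox7c, Cox8a, Cox8b, Atp5g1, Atp5g2 and Atp5d.

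This difference moved with transcript length. Nuclear members are short, with a median length of 689 bases against 2572 bases for other genes, and short genes outside the chain also tended to be lower in osteoarthritis: 69.6% of other genes under 500 bases and 58.6% of those from 500 to 1000 bases lay below both controls. Among other genes of under 500 bases the median log2 fold change was -1.58, from 500 to 1000 bases -0.86, from 1000 to 2000 bases -0.24, from 2000 to 4000 bases 0.23, and over 4000 bases 0.76. The members' medians in the first 4 of these classes were -1.02 (n = 18), -0.98 (n = 35), -0.63 (n = 24) and 0.04 (n = 3). Of the 80 members, 48 lay below the median of other genes in their own class, and among the 18 shortest only 2 did. Both osteoarthritis libraries carried the trend: relative to the control mean, other genes under 500 bases had medians of -1.24 and -1.36, and those over 4000 bases 0.54 and 0.78.

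**Figure D1:**
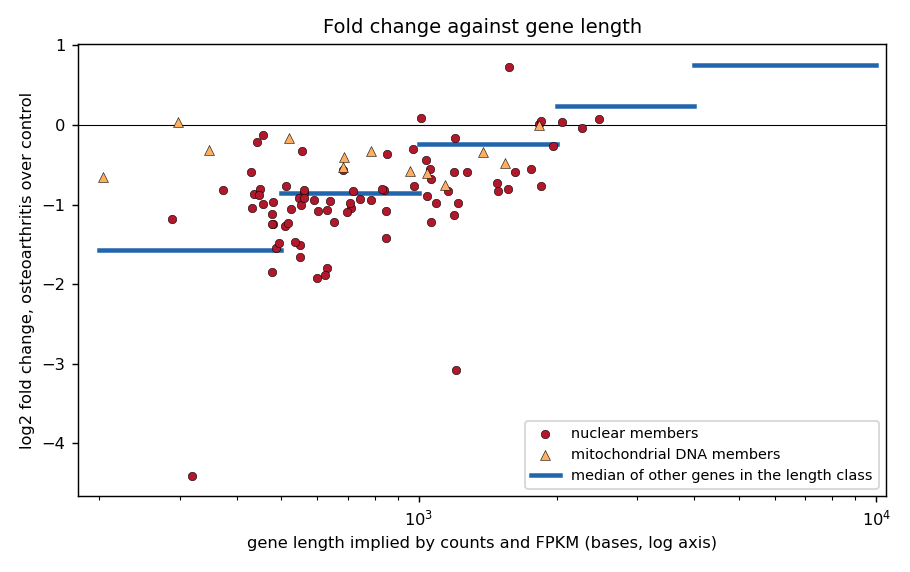
Log2 fold change of each tested member (points) and the median of other genes in 5 length classes (blue segments), against gene length on a log axis. The median of other genes went from -1.58 under 500 bases to 0.76 over 4000 bases.

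With an offset for length in each library, an alternative added after the data were seen, the nuclear median was -0.07 and 47 of 80 members were negative. On that scale 18 members (22.5%) lay below both controls and 15 (18.8%) above, against 26.5% and 25% of all genes. The smallest edgeR adjusted p among nuclear members was 0.162, for Ndufb4, which was higher (1.13). At an unadjusted p under 0.05 by edgeR, 1 nuclear member was lower and 2 higher, against 1520 and 1245 of all 15282 genes. The offset flattens the trend over all genes, whatever its source (Spearman's rho of fold change with length 0.045 after it), but left an opposite trend among the members: rho was -0.35 over the 80 nuclear members and -0.84 over the 13 of mitochondrial DNA. On the offset scale, shorter members thus tended to have the higher values. What made the libraries differ by length was not tested, so every lower or higher value below is to be read beside this trend.

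The nuclear members also moved together between libraries of the same group. Their median was 0.32 higher on the log2 scale in control 2 than in control 1 (63 of 80 higher), and it was lower in osteoarthritis 2 than in osteoarthritis 1 by -0.39 (71 of 80 lower). Over all 15282 genes, 7752 and 7401 went these ways. Against the mean of the controls, the median was -0.63 in osteoarthritis 1 and -1.10 in osteoarthritis 2. The differences within groups were smaller than that between groups, and osteoarthritis 2 was the lower library for most members.

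**Figure D2:**
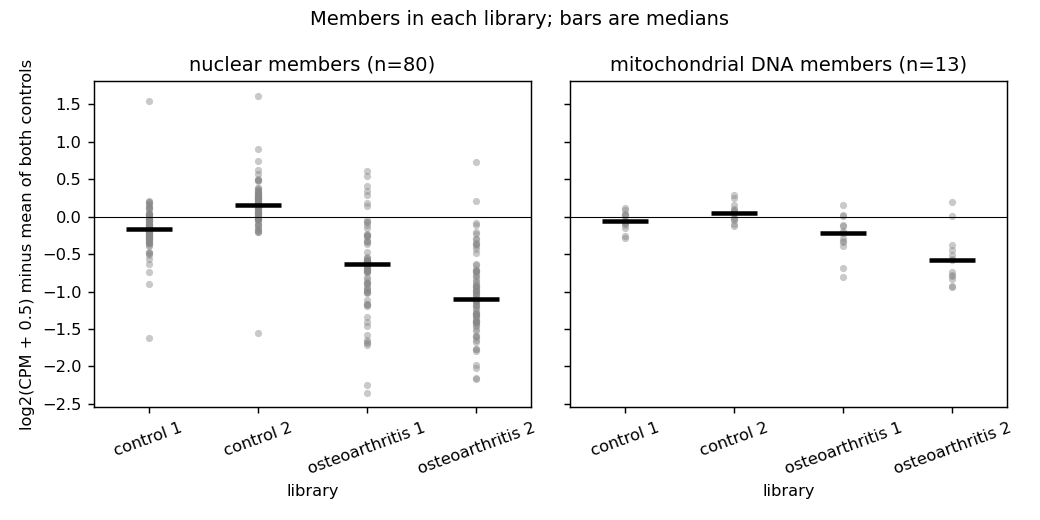
Each member's log2(CPM + 0.5) minus the mean of both controls in the 4 libraries, nuclear and mitochondrial DNA genes in separate panels, with medians as bars. The nuclear medians of the osteoarthritis libraries were -0.63 and -1.10, and the mitochondrial DNA medians -0.22 and -0.58 on the TMM scale; with the length offset described above the nuclear median was -0.07 and the mitochondrial DNA median 0.37.

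By complex, the nuclear medians ranged from -0.45 in complex II to -1.17 in complex IV, with complex I at -0.83, complex III at -0.89 and complex V at -0.94. Summed over genes, complex IV had 1613 and 2310 CPM in the controls and 951.1 and 691.2 CPM in osteoarthritis, a ratio of 2.39. Complex V had 2370 and 3301 against 1728 and 1319 CPM (ratio 1.86). Complex III had 746.6 and 926.3 against 521.9 and 405.2 CPM (ratio 1.80), and complex I had 1924 and 2281 against 1419 and 1024 CPM (ratio 1.72). Complex II, at 348.7 and 419.7 against 343.4 and 212.7 CPM, had a ratio of 1.38. On the TMM scale the groups did not overlap for any of the 5 sums. Each had p = 0.33 by a two-sided exact permutation test, the smallest that 2 libraries against 2 can give. Of single genes, 26.5% lay below both controls. The complex II sums stood apart only narrowly, at 343.4 CPM in osteoarthritis 1 and 348.7 CPM in control 1. In FPKM, set by library size alone, Sdha, Sdhb and Sdhc were higher in osteoarthritis 1 than in both controls, and Sdhd was lower. No test compared the complexes with each other. With the length offset, their medians lay between -0.07 and -0.16.

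**Figure D3:**
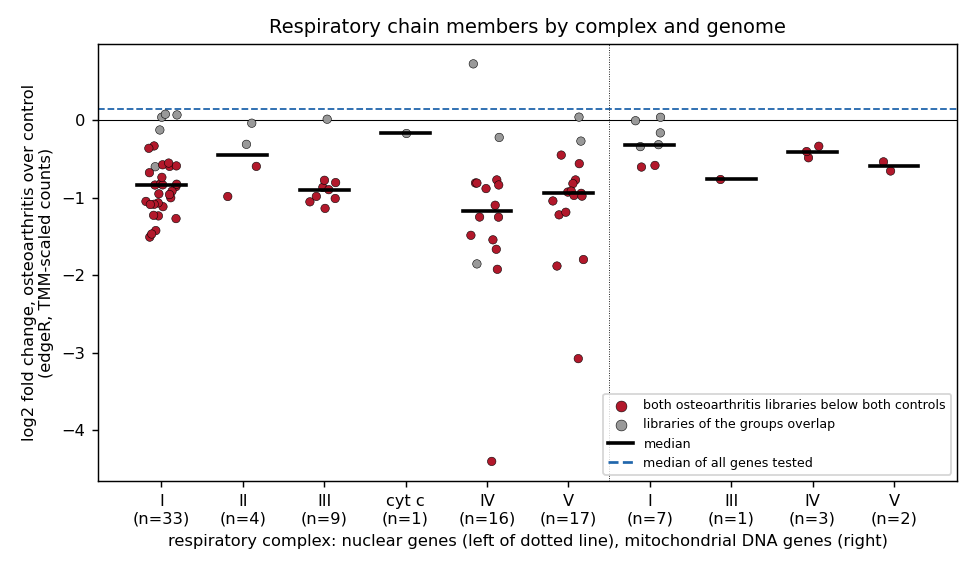
Log2 fold change of every tested member by complex, nuclear genes left of the dotted line and mitochondrial DNA genes right of it, coloured by whether both osteoarthritis libraries lay below both controls; the dashed line is the median of all genes. The nuclear medians lie between -0.45 (complex II) and -1.17 (complex IV), before any correction for length.

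Complex I oxidises NADH. Of its 33 tested nuclear members, 28 lay below both controls and 10 were lower at an unadjusted p under 0.05, against 26.5% and 11.2% of all genes. The most abundant by FPKM included Ndufa11 and Ndufb8, accessory subunits of the membrane arm. Ndufa11 had 85.5 and 173 CPM in the controls, against 53.9 and 53.7 CPM (log2 fold change -1.27 ± 0.43 SE, edgeR adjusted p = 0.178). Ndufb8 had 90.6 and 128 against 58.2 and 35.3 CPM, so both groups stood apart for each gene. Among the accessory subunits with the smallest p, Ndufb7 had 69.6 and 87.0 against 34.2 and 22.5 CPM (-1.47 ± 0.36 SE, edgeR adjusted p = 0.12). Ndufb11 had 71.1 and 116 against 35.8 and 34.2 CPM (-1.42 ± 0.37 SE, edgeR adjusted p = 0.126). Ndufa6, which sits near the junction of the arms, had 72.1 and 56.5 against 31.2 and 23.6 CPM (-1.23 ± 0.34 SE, edgeR adjusted p = 0.135). In each of these last 3 genes the higher osteoarthritis library lay below the lower control.

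The 7 nuclear core subunits that carry the flavin and iron-sulphur clusters had a median of -0.59, and the 26 accessory ones -0.93. Of the core subunits, 6 of 7 lay below both controls. The exception was Ndufs1, the largest, which holds several of the clusters: it had 47.0 and 38.9 CPM in the controls and 40.8 and 49.3 CPM in osteoarthritis (0.07). Ndufv3, a small accessory subunit of the NADH-binding module, overlapped as well, with 51.5 and 54.1 against 70.6 and 41.1 CPM (0.08), as did Ndufa10, with 66.0 and 49.4 against 72.6 and 46.2 CPM (0.04). Ndufa4, grouped here by its name though it is now counted as a subunit of complex IV, had a log2 fold change of -0.95. Ndufa1, with 6 and 1 counts in the controls and 6 and 0 in osteoarthritis, and Ndufs6, with 1 and 0 against 2 and 1, were too low to test. Both are known as constitutive subunits of complex I, and whether the counting lost their reads was not tested.

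Complex II, succinate dehydrogenase, links the chain to the citric acid cycle and has no subunit in mitochondrial DNA. On the TMM scale its catalytic subunits overlapped between the groups and its anchors did not. Sdha, the flavoprotein, had 89.6 and 109 CPM in the controls and 121 and 73.2 CPM in osteoarthritis (-0.04), and Sdhb, the iron-sulphur subunit, also overlapped (-0.31). The membrane anchors lay below both controls: Sdhc had 97.5 and 106 against 85.5 and 49.5 CPM (-0.59 ± 0.38 SE), and Sdhd 104 and 123 against 73.9 and 41.1 CPM (-0.98 ± 0.40 SE, edgeR adjusted p = 0.224). A difference between these pairs was not tested, and the split depended on the scale. With library size alone, 1 member of complex II lay below both controls, and on the FPKM scale Sdhc overlapped (82.3 and 81.9 against 86.1 and 36.9). With the length offset Sdhc overlapped (-0.16), Sdhd lay below (-0.57) and Sdhb lay above both controls (0.31).

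Complex III hands electrons from ubiquinone to cytochrome c, and 8 of its 9 nuclear members lay below both controls, against 26.5% of all genes. Uqcrh, the hinge subunit that docks cytochrome c1, had 93.2 and 114 against 58.9 and 44.1 CPM (-1.01 ± 0.33 SE, edgeR adjusted p = 0.17). Uqcr11, another small subunit, had 99.7 and 99.5 against 54.4 and 41.8 CPM (-1.05 ± 0.31 SE, edgeR adjusted p = 0.152). With the length offset, Uqcrh and Uqcr11 had 0.08 and 0.07. Cyc1, cytochrome c1 itself, had 82.3 and 142 against 57.9 and 44.0 CPM (-1.14 ± 0.40 SE, edgeR adjusted p = 0.184). Of the 2 core proteins, Uqcrc1 lay below both controls (-0.80), while Uqcrc2 had 48.2 and 56.3 CPM in the controls and 57.4 and 48.3 CPM in osteoarthritis (0.02). Cycs, the soluble cytochrome c, had 52.4 and 59.6 against 47.1 and 52.5 CPM (-0.17).

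Complex IV, cytochrome c oxidase, reduces oxygen to water. Of its 16 tested nuclear members, 13 lay below both controls, 8 were lower at an unadjusted p under 0.05 and DESeq2 called 6 lower, against 26.5%, 11.2% and 8.26% of all genes. Cox5a had 124 and 187 CPM in the controls and 48.3 and 33.8 CPM in osteoarthritis (-1.92 ± 0.39 SE, edgeR adjusted p = 0.0982). With the length offset it was still lower, at -0.90 (edgeR adjusted p = 0.247), the only nuclear member lower at an unadjusted p under 0.05 on that scale. Ndufb4 (1.13) and Ndufs5 (0.76), of complex I, were higher at that threshold. Cox5b had 101 and 162 against 46.1 and 44.3 CPM (-1.54 ± 0.37 SE, edgeR adjusted p = 0.115). Cox6a1, the general isoform of subunit VIa, had 286 and 468 against 122 and 116 CPM (-1.66 ± 0.42 SE, edgeR adjusted p = 0.12). In each of these 3 genes the lower control exceeded both osteoarthritis libraries. Cox4i1, the general isoform of the largest nuclear subunit, had 370 and 523 against 291 and 127 CPM (-1.09 ± 0.54 SE, edgeR adjusted p = 0.292), with the osteoarthritis libraries far apart. Cox8a, the general form of the smallest subunit, had 150 and 295 against 93.7 and 65.5 CPM (-1.48 ± 0.47 SE, edgeR adjusted p = 0.16). Cox6b1, outside the rule as LOC688869, had 127 and 216 against 86.9 and 55.4 CPM (-1.27, edgeR adjusted p = 0.18).

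Several complex IV subunits have isoforms made in other tissues. Cox8b, a muscle and brown fat form, had 74 and 49 counts in the controls against 1 and 4 in osteoarthritis, or 2.60 and 1.88 against 0.0339 and 0.173 CPM (edgeR adjusted p = 0.194). Cox6a2, the heart and skeletal muscle form, had 17.3 and 1.57 CPM in the controls and 0.780 and 4.45 CPM in osteoarthritis. The fitted difference was -1.85 ± 1.39 SE on the log2 scale, and 0.64 without control 1. The sum of 14 skeletal muscle markers was also highest in control 1 and next in osteoarthritis 2, at 3307 and 156 CPM in the controls and 175 and 456 CPM in osteoarthritis. Myh2 and Myh7 among them were highest in osteoarthritis 2, and the part of muscle in these values was not tested. Ucp1, which defines brown fat, had 0 counts in all 4 libraries. Cox7a1, another muscle form, had 0 and 18 counts in the controls and 11 and 18 in osteoarthritis. Cox4i2, a form known from lung, had 96.8 and 82.5 against 33.3 and 69.1 CPM (-0.81 ± 0.44 SE, edgeR adjusted p = 0.33).

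On the FPKM scale, which allows levels of different genes to be compared, the general forms made up most of each family. Cox4i2 made up 18.0% and 11.7% of the Cox4 FPKM in the controls and 8.75% and 31.4% in osteoarthritis, with both extremes in the osteoarthritis libraries. Cox8b made up 2.62% and 0.979% against 0.0561% and 0.408% of the Cox8 FPKM (two-sided exact permutation p = 0.33, the smallest possible). Cox6b2, known mainly from testis, made up 2.80% to 6.57% in all libraries. Cox7b2 and Cox8c, also known mainly from testis, had at most 1 and 7 counts and were not tested.

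**Figure D4:**
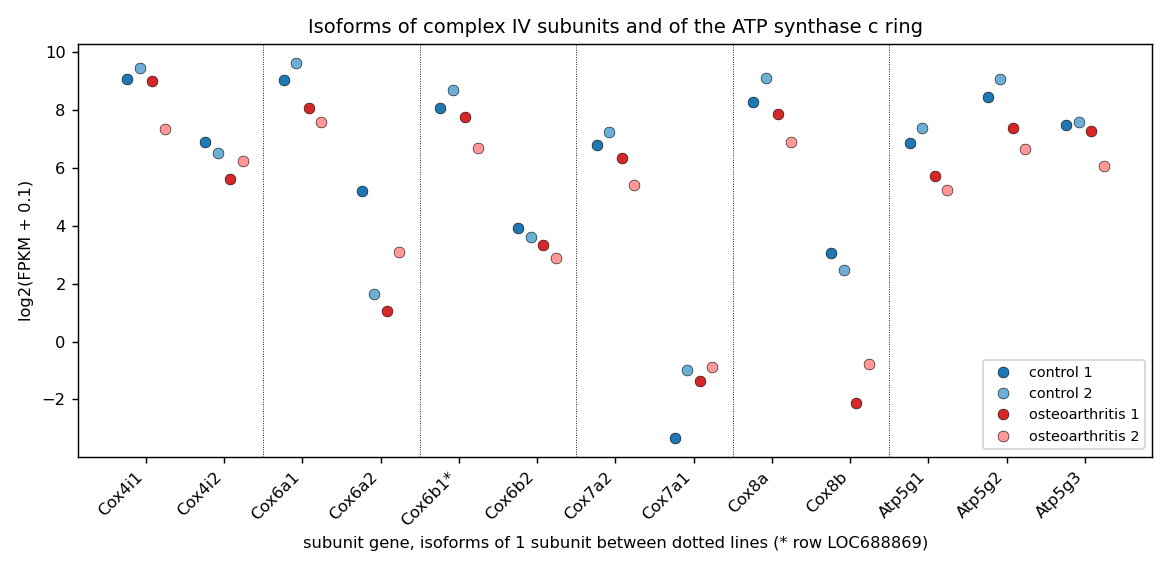
Log2(FPKM + 0.1) of complex IV isoforms and the 3 c subunit genes of complex V in each library; Cox6b1 is the row named LOC688869. The general forms lie well above the muscle forms Cox6a2, Cox7a1 and Cox8b in all 4 libraries, and Cox6a2 is high in control 1.

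Complex V makes ATP. Of its 17 tested nuclear members, 15 lay below both controls and 7 were lower at an unadjusted p under 0.05, against 26.5% and 11.2% of all genes. The members that overlapped were Atp5s (0.04) and Atp5sl (-0.27), which are counted here by name but are not stable subunits. Atp5g1, Atp5g2 and Atp5g3 encode precursors with the same mature c subunit, which forms the rotating membrane ring. Atp5g1 had 71.7 and 113 CPM in the controls and 27.0 and 26.1 CPM in osteoarthritis (-1.80 ± 0.36 SE, edgeR adjusted p = 0.097, the smallest among all members). Atp5g2 had 212 and 360 against 85.5 and 70.0 CPM (-1.88 ± 0.42 SE, edgeR adjusted p = 0.109). Atp5g3 had 131 and 153 against 94.1 and 55.9 CPM (-0.92 ± 0.39 SE, edgeR adjusted p = 0.234). All 3 lay below both controls, and the shares of c subunit FPKM stood apart for Atp5g2 and Atp5g3 but not for Atp5g1. Atp5g1 made up 18.1% and 18.6% in the controls and 14.0% and 18.1% in osteoarthritis (two-sided exact permutation p = 0.667). Atp5g3 made up 28.1% and 21.5% in the controls and 41.3% and 32.9% in osteoarthritis, and Atp5g2 53.8% and 59.9% against 44.7% and 49.0% (two-sided exact permutation p = 0.33 each, the smallest possible).

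Atp5b, the catalytic beta subunit and the most abundant nuclear member by CPM, had 542 and 766 against 514 and 375 CPM (-0.56 ± 0.44 SE). Atp5d, the delta subunit of the central stalk, had 181 and 261 against 108 and 82.2 CPM (-1.22 ± 0.38 SE, edgeR adjusted p = 0.159). Atp5j2, subunit f of the membrane part, had 137 and 222 against 86.6 and 88.4 CPM (-1.04, and 0.28 with the length offset). Atpif1, the inhibitor that binds the enzyme when the gradient falls and lies outside the rule, had 138 and 169 against 49.1 and 67.7 CPM (-1.39, edgeR adjusted p = 0.121). Usmg5, also outside the rule, had 27.8 and 35.8 against 24.5 and 27.4 CPM (-0.29, edgeR adjusted p = 0.65). Atp5f1, subunit b of the peripheral stalk, was singled out after its values were seen: it had 1.62 and 19.4 CPM in the controls and 1.53 and 0.951 CPM in osteoarthritis. The fitted difference of -3.08 ± 1.28 SE on the log2 scale was -0.38 without control 2, the only library in which it was above 2 CPM.

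Mitochondrial DNA genes had mostly negative log2 fold changes on the TMM scale, with no gene passing the test. The median of the 13 was -0.40, and 8 of them (61.5%) lay below both controls and none above, against 26.5% and 30% of all genes, but only 2 lay below both when library size alone set the scale. Library size alone moves the median of all genes from 0.15 to 0.27. None had an unadjusted p under 0.05 by edgeR, and DESeq2 called none. Against the control mean, the median was -0.22 in osteoarthritis 1 and -0.58 in osteoarthritis 2, and osteoarthritis 2 was below osteoarthritis 1 in 11 of 13. As a description, Spearman's rho of fold change with length was -0.11 over these 13 genes of 1 molecule, 0.485 over the 80 nuclear members and 0.377 over 15189 other genes. The length offset, which follows all genes, moved the mitochondrial DNA median to 0.37. On that scale 2 genes (15.4%) lay below and 7 (53.8%) above, against 26.5% and 25% of all genes, and rho with length was -0.84. ND4L (1.48) and ND3 (1.11) were higher at an unadjusted p under 0.05 by edgeR on that scale, against 1245 of all 15282 genes. Both are short, at 297 and 348 bases, and without the offset they had 0.04 and -0.31.

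Their share of all counts was 8.60% and 8.16% in the controls, and 8.39% and 4.88% in osteoarthritis. The means were 8.38% ± 0.306 (SD, n = 2) and 6.63% ± 2.48 (SD, n = 2; two-sided exact permutation p = 0.667), so the difference lay in osteoarthritis 2. Exact 95% binomial intervals reached at most 0.011 percentage points to either side and cover counting error only. Globin genes took 12.0% and 12.4% of control counts and 0.218% and 0.552% of osteoarthritis counts. Without them the mitochondrial DNA share was 9.77% and 9.32% against 8.41% and 4.91%. Nuclear members took 0.712% and 0.857% of counts in the controls and 0.603% and 0.330% in osteoarthritis (p = 0.33 by the same exact test). As a share of all member counts, nuclear genes made up 7.65% and 9.50% against 6.71% and 6.33%.

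The mitochondrial DNA genes of complexes III and IV all lay below both controls on the TMM scale. CYTB, the catalytic core of complex III, had the lowest log2 fold change of the 13, with 9404 and 10486 CPM in the controls and 6174 and 5595 CPM in osteoarthritis (-0.76 ± 0.62 SE, edgeR adjusted p = 0.512). COX1, the subunit that reduces oxygen and the member with the most counts, had 26212 and 25260 against 19691 and 17165 CPM (-0.48). COX2 had 10927 and 10325 against 9737 and 6354 CPM (-0.40), and COX3 10437 and 11080 against 9214 and 7869 CPM (-0.33). With the length offset COX2 and COX3 turned to 0.48 and 0.45.

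Of the 7 complex I genes, ND1 and ND2 lay below both controls. ND1 had 6022 and 6966 against 5317 and 3369 CPM (-0.58), and ND2 6189 and 6037 against 4851 and 3207 CPM (-0.60). The other 5 overlapped. ND3 had 669 and 993 against 712 and 626 CPM (-0.31), and ND4 1086 and 921 against 1008 and 580 CPM (-0.34). ND5 had 1607 and 2290 against 1955 and 1933 CPM, ND4L 271 and 335 against 279 and 344 CPM (0.04), and ND6, the only member encoded on the light strand, 949 and 1026 against 1101 and 666 CPM (-0.16). The direction of ND3, ND4, ND4L, ND5 and ND6 was not stable, since each changed sign under at least 1 alternative, and with the length offset ND1 had 0.04.

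ATP6 and ATP8 encode membrane subunits of complex V. ATP6 had 11311 and 12707 against 9567 and 7018 CPM (-0.53), and ATP8 119 and 104 against 63.7 and 78.4 CPM (-0.65 ± 0.32 SE, edgeR adjusted p = 0.286), and with the length offset these were 0.37 and 0.69. ATP8 and ATP6 lie on the same transcript with overlapping reading frames, yet ATP8 had 588, 472, 376 and 342 FPKM and ATP6 16760, 17207, 16910 and 9174 FPKM. ND4L and ND4 also overlap. How the authors' counter assigned reads in the overlaps, and whether it used strand, is not given in the sources used here, so levels within these pairs are uncertain. COX1, by contrast with its counts, was close to ATP6 and COX2 per length: COX1 had 17119, 15077, 15342 and 9891 FPKM, and COX2 16119, 13921, 17136 and 8270 FPKM.

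**Figure D5:**
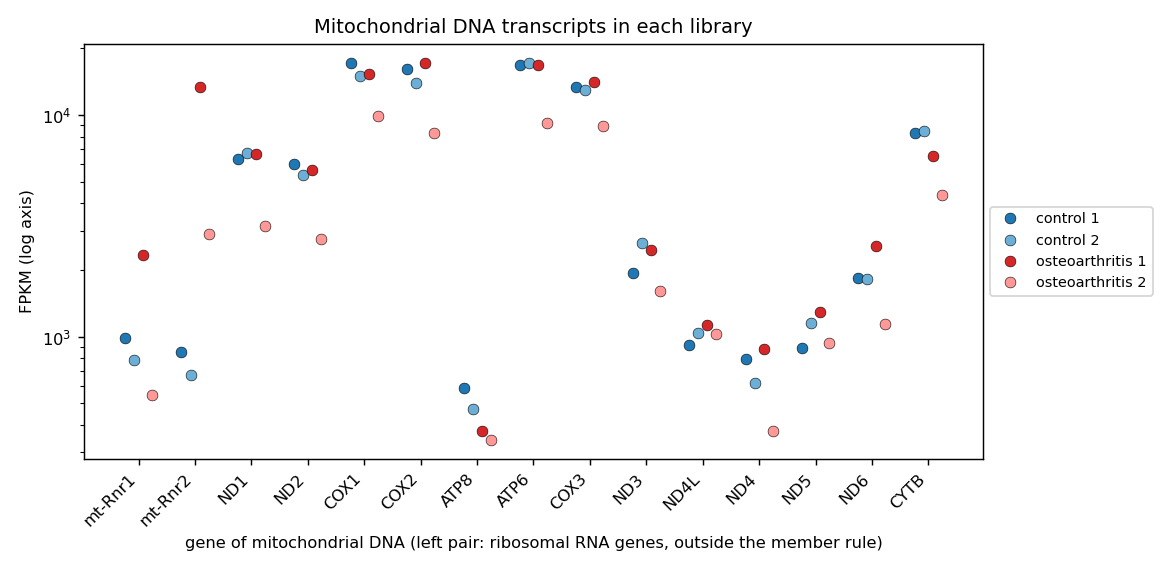
FPKM of the 13 member genes of mitochondrial DNA and the pair of ribosomal RNA genes in each library, on a log axis, in the genes' order along the molecule. COX1, COX2, COX3 and ATP6 lie near the top and ATP8 far under ATP6; on this scale, set by library size alone, osteoarthritis 1 lies near the controls for most members and 2 of 13 members are below both controls in both osteoarthritis libraries.

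Most complexes held shares of the mitochondrial messages that overlapped between the groups. Complex IV genes made up 55.8% and 52.7% of the 13 genes' counts in the controls and 55.5% and 57.3% in osteoarthritis, complex I genes 19.7% and 21.0% against 21.9% and 19.6%, and complex V genes 13.4% and 14.5% against 13.8% and 13.0%. CYTB made up 11% and 11.8% against 8.86% and 10.2%, without overlap (two-sided exact permutation p = 0.33, the smallest possible). ND5 made up 1.89% and 2.59% against 2.81% and 3.53%, and ND6 1.11% and 1.16% against 1.58% and 1.22%, also without overlap and higher in osteoarthritis. COX3, at 12.25% and 12.52% against 13.23% and 14.36%, and ND4L, at 0.318% and 0.378% against 0.401% and 0.627%, did likewise. The exact permutation p was 0.33 for each, the smallest possible, and the shares of the other genes overlapped. Of the ribosomal RNAs of the same molecule, outside the rule, mt-Rnr2 was higher in osteoarthritis and mt-Rnr1 overlapped. The values of mt-Rnr2 were 1325 and 1141 CPM in the controls and 17473 and 5140 CPM in osteoarthritis (difference 3.20 on the log2 scale, edgeR adjusted p = 0.131). Those of mt-Rnr1 were 937 and 817 against 1857 and 589 CPM (0.48, edgeR adjusted p = 0.716). Together they took 2.59% and 2.16% of mitochondrial DNA counts in the controls and 21.7% and 9.46% in osteoarthritis, of which mt-Rnr2 alone took 1.52%, 1.26%, 19.6% and 8.49%. Levels of ribosomal RNA in a polyA library depend on the selection as well as on the cells, and the part of the selection was not tested.

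For each promoter motif, the median of members with it was slightly lower than that of members without it, and the differences were not tested. The 13 tested members with the NRF1 motif had a median log2 fold change of -0.91 (10 below both controls) and the 56 without it -0.87 (46 below). The 18 with the ETS motif had -0.98 (15 below) and the 51 without it -0.83 (41 below). The 14 with the YY1 motif had -0.94 (13 below), against -0.86 (43 of 55 below) without it. The genes whose windows are printed above were chosen for their range of values, so their spread does not bear on these comparisons. Ndufa11 and Atp5g2 had -1.27 and -1.88, and Ndufv3 and Sdha, with the same motif, had 0.08 and -0.04. Nrf1 itself had 47.3 and 50.1 CPM in the controls and 23.9 and 29.2 CPM in osteoarthritis (-0.88 ± 0.31 SE, edgeR adjusted p = 0.186).

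Other genes of the pathway were taken from 6 lists, with no gene passing an adjusted p of 0.05 by edgeR. Their counts are to be read against 26.5% of all genes below both controls and 30% above. Of 39 tested assembly factors, 12 lay below both controls (30.8%, near the share of all genes) and 8 above, with a median of -0.15. Cox17, the copper chaperone of complex IV, had 44.2 and 57.8 CPM in the controls and 14.6 and 15 CPM in osteoarthritis (-1.79 ± 0.33 SE, edgeR adjusted p = 0.0881). Cox14 and Ndufaf3, assembly factors of complexes IV and I, had -1.88 and -1.61 (edgeR adjusted p = 0.0961 and 0.0987). Of 24 carriers and import proteins, 16 lay below (66.7%) and 3 above (median -0.62), among them Timm13 (-2.11), Timm8b (-1.21) and Tomm7 (-1.46), small proteins of protein import. These lists also differ in length, with medians of 1580 bases for assembly factors and 1149 bases for carriers and import, and with the length offset their medians were 0.05 and -0.06.

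Lists of longer genes had medians near or above 0. Of 22 genes that maintain and express mitochondrial DNA, 5 lay below (22.7%) and 3 above (median -0.10), and of 17 citric acid cycle genes, 3 lay below (17.6%) and 5 above (median 0.02), against 26.5% and 30% of all genes. Mdh2, malate dehydrogenase, had 131 and 150 against 85.5 and 77.1 CPM (-0.79, edgeR adjusted p = 0.215), while Ogdh, of the oxoglutarate dehydrogenase complex, had 11.9 and 16 against 29.7 and 69.6 CPM (1.83 ± 0.51 SE, edgeR adjusted p = 0.139). Of 15 regulators of mitochondrial biogenesis, with a median length of 3909 bases, 1 lay below (6.67%) and 7 above (median 0.55). With the length offset, 3 regulators lay below (20%) and 5 above (33.3%), with a median of 0.29, against 26.5% and 25% of all genes. The offset medians were -0.04 for genes that maintain and express mitochondrial DNA and 0.15 for the citric acid cycle. Nrip1, a corepressor of oxidative genes, had 16.3 and 16 against 40.1 and 39.2 CPM (1.29 ± 0.32 SE, edgeR adjusted p = 0.118). Ogdh and Nrip1 are 4652 and 8445 bases long, and other genes over 4000 bases had a median of 0.76. Perm1, a regulator known from muscle, had 0 and 0 CPM in the controls and 0.984 and 0.605 CPM in osteoarthritis.

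Of 17 tested relatives of the chain, such as uncoupling proteins, ubiquinone synthesis and supercomplex factors, 8 lay below (47.1%) and 1 above (median -0.65), against 26.5% and 30% of all genes; with the length offset the median was -0.28. Ucp2, an inner membrane carrier abundant in blood and immune cells, had 1616 and 2120 CPM in the controls and 167 and 176 CPM in osteoarthritis (-3.44 ± 0.49 SE, edgeR adjusted p = 0.0831). Its difference stood beside the lower erythroid, neutrophil and B cell markers. Of 6 macrophage markers, 4 lay below both controls, Adgre1 overlapped and Mrc1 lay above; their sum of 4994 and 7318 against 608 and 1327 CPM was mostly Lyz2 (4705 and 6879 against 382 and 1100 CPM). The part of these markers was not tested. Coq7, of ubiquinone synthesis, had -1.60, and Higd2a, a supercomplex factor, -1.06.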

How the data were processed

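The authors deposited raw read counts per gene and FPKM for 4 polyA RNA libraries of rat cartilage, 2 per group. Per the submitters' processing notes, fastp, TopHat and the build hg38, a human build, were used; the sources used here do not name a counting tool, annotation or strand setting. The deposited FPKM equal the counts divided by gene length and column total, so they are not independent of the counts, and gene lengths were taken from that ratio. Groups came from the labels; replicate numbers are accession order and pair nothing.

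Genes kept by filterByExpr (15282) were tested with edgeR 4.0.16 quasi-likelihood (TMM, Benjamini-Hochberg, threshold 0.05) in R 4.3.3; limma 3.58.1 and DESeq2 1.42.0 were alternatives. Single values were tested by exact permutation over libraries. The script was tested on simulated data. Totals were 28156020 and 28270779 counts (controls) and 24492412 and 25994449 (osteoarthritis). Named were all mitochondrial DNA members, the isoform families and up to 3 genes of smallest p per list. Per complex, the 2 members highest in mean FPKM and up to 3 of smallest p per direction with groups apart were named. Ndufs1, Ndufv3, Ndufa10, Ndufa4, Uqcrc1, Uqcrc2, Cycs and Atp5f1 were added for their role or after their values were seen. Ndufab1 and Usmg5 were added as subunits outside the rule. The members and lists were chosen with earlier results of these data known. Promoter sequences and gene names came from RefSeq tables of GRCr8. The length offset was a lowess of each library's log ratio on length.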

Additional observations from a re-analysis of the deposited data

How the results depend on the processing

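No paired analysis was possible because the labels give no replicate numbers. With 2 libraries per group, the calls depended on the tool. Genes called higher and lower numbered 0 and 0 by the quasi-likelihood test, 1107 and 1262 by DESeq2, 965 and 978 by the likelihood ratio test, and 677 and 751 with no filter beyond 1 count. Leaving out a library gave 0 to 1069 higher and 0 to 949 lower: 1069 and 949 without osteoarthritis 1, 538 and 728 without osteoarthritis 2, and 0 without either control. Nuclear members called lower were 12 by DESeq2, 7 by the likelihood ratio test, 5 with no filter, and 0 to 12 when a library was left out (12 without osteoarthritis 1, 2 without osteoarthritis 2). These counts come with fewer or more genes or another dispersion estimate, and the cause was not tested.

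The nuclear median was -1.19 to -0.67 when a library was left out and -0.0695 with the length offset, where 18 members lay below both controls and 15 above. Members below both controls numbered 67 to 73 with a library left out, and members above 1 to 5, or 2 with no filter. With a library left out fewer values must stand apart, so such counts tend to rise from the 66 and 0 of the full set. They therefore do not test stability, and this also holds for the mitochondrial DNA counts that follow. For mitochondrial DNA, members below both were 2 with library size alone, 2 by limma-trend on log2(FPKM + 1) and on log2(FPKM + 0.1), 2 with the length offset and 8 to 11 with a library left out; members above were 7 with the length offset and 0 to 2 with a library left out. Its median was 0.37 with the length offset and -0.63 to -0.22 with a library left out. The mitochondrial DNA share difference of -1.75 percentage points ranged from -3.50 to 0.00599 (without osteoarthritis 2). The all-gene median was -0.0336 without osteoarthritis 1.

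Single genes changed sign as follows. With the length offset, ATP8 was 0.69, ATP6 0.37, ND1 0.0368, ND3 1.11, ND5 0.11, ND6 0.96, COX2 0.48, COX3 0.45, Cox6b2 0.38, Cox7b 0.36, Uqcr11 0.0714, Uqcrh 0.0836 and Atp5j2 0.28. ND4L was -0.068 with upper quartile factors and -0.00718 with the filter of 1 CPM in 2 libraries. ND5 was 0.13 with library size alone, 0.00591 with no filter, 0.0171 by limma-voom and 0.12 on both FPKM scales, and ND6 was 0.012 with library size alone. When a library was left out, ND4L ranged from -0.17 to 0.20, ND3 from -0.64 to 0.00109, ND4 from -0.84 to 0.00675, ND5 from -0.30 to 0.27, ND6 from -0.62 to 0.16, Cox6a2 from -3.59 to 0.64 and Cox7a1 from -0.34 to 6.96. Of 703 values for 44 genes under all alternatives, 636 kept direction and side of the threshold, 37 passed it and 30 changed sign; the cause was not tested.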
